A study of Homo sapiens with 24 samples.

Results

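Heat was compared with no heat in irradiated SAS spheroids, by setting the 3 libraries of spheroids that were heated and then irradiated (HT+RT) against the 3 libraries of spheroids that were irradiated alone (RT). The 6 libraries, of 24 in the series, were chosen by their labels, with no measured value used. SAS and FaDu are established lines of human head and neck squamous cell carcinoma, grown for 4 days as spheroids of about 400 µm, and RNA was taken 0.5 h after the treatment and sequenced. Each line gave 4 groups of 3 libraries: untreated control, RT with a dose of 10 Gy for SAS or 7 Gy for FaDu, heat at 42.5 °C for 60 min (HT), and HT+RT with the same heat and the same dose. All 6 libraries compared here had 10 Gy, none of them was an untreated control, and heat was the labelled difference between them. The comparison asks what heat adds to the transcripts of spheroids that are irradiated in any case, at a single time shortly after the treatment. Each spheroid holds cells of 1 tumour line, without stroma, vessels or immune cells, so a response of those tissues is outside what the libraries can show.

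Heat unfolds proteins, and the transcription factor HSF1, otherwise held inactive by chaperones, then forms trimers that bind heat shock elements, inverted repeats of the letters GAA, near the starts of chaperone genes. HSP70 proteins hold unfolded chains, DNAJ proteins bring them the chains and start the hydrolysis of ATP, and nucleotide exchange factors such as HSP110 and BAG proteins let the chains go. Radiation breaks DNA and activates ATM, p53 and NF-κB. Hyperthermia is combined with radiotherapy in head and neck tumours because heat makes cells more sensitive to radiation. Several effects of heat may contribute, among them impaired repair of DNA by homologous recombination.

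The total counts of the RT libraries were 18556387, 19831372 and 19253563, and those of the HT+RT libraries were 16123061, 20981315 and 20935069. Levels are given as CPM, a gene's counts relative to the total of its library after scaling of the 24 libraries with edgeR's TMM factors, and groups of 3 libraries as mean ± SD (n = 3). The epithelial identity of the spheroids was checked on 13 markers, of which KRT8 (a keratin of simple epithelia) had 4178 ± 390.0 CPM in RT and 4694 ± 271 CPM in HT+RT. EPCAM, an epithelial adhesion molecule, had 282 ± 14.1 CPM and 311 ± 15 CPM, and all 13 epithelial markers were tested with 0 altered by edgeR, although 5 upward and 2 downward passed the adjusted p alone and 10 had an unadjusted p under 0.05. Of all 15125 genes tested, 2126 upward and 2082 downward passed the adjusted p alone and 5816 had an unadjusted p under 0.05. The 13 markers' levels were also summed. Their summed level was 13240, 12320 and 12220 CPM in the RT libraries and 13640, 13790 and 13140 CPM in the HT+RT libraries. Markers of other tissues were few: of 9 leukocyte markers, PTPRC, CD3D and MS4A1 had 0 counts in all 6 libraries, and CD14 was the most abundant at 7.84 and 7.99 CPM. The leukocyte sum was 10.8, 10.1 and 8.88 CPM in RT and 10.3, 9.10 and 9.27 CPM in HT+RT. Of 6 endothelial markers, KDR had 0 counts, CDH5 was the most abundant at 16.5 and 16.1 CPM, and the sum was 20.3, 23.7 and 13.2 CPM in RT and 18.6, 23.4 and 11.7 CPM in HT+RT. Of the 2 endothelial and the 2 leukocyte markers tested, 0 were altered by edgeR or DESeq2 and 0 had an unadjusted p under 0.05. A fibroblast marker moved: COL1A1, the alpha-1 chain of type I collagen, had 1.35, 1.42 and 1.50 CPM in the RT libraries and 24.4, 24.1 and 23.7 CPM in the HT+RT libraries. Every HT+RT library stood above every RT library, with a log2 fold change of 4.11 (SE 0.132, adjusted p 1.3e-09). Of the other 6 fibroblast markers, COL1A2, COL3A1, DCN and LUM each had means of at most 0.183 CPM in either group, PDGFRA had 0.185 and 0.578 CPM and PDGFRB 0.499 and 0.266 CPM. The list's sum was 2.71, 1.94 and 2.61 CPM in RT and 25.6, 25.3 and 24.8 CPM in HT+RT.

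Promoters of heat-induced genes are printed here beside that of a chaperone gene that rose by less, and 150 bases before the start are shown from the RefSeq promoter table on GRCh38.p14. Capitals mark the matches to GAANNTTC, TTCNNGAA and their extensions to 3 units, GAANNTTCNNGAA and TTCNNGAANNTTC, in which N is any base. Each motif was searched on both strands, where GAANNTTC and TTCNNGAA read the same and the forms of 3 units read as each other, and matches overlap where units follow each other. HSPA6 (chr1:161524390-161524539, plus strand), HSPA1A (chr6:31815393-31815542, plus strand), DNAJB1 (chr19:14518398-14518547, minus strand, the second of 3 starts) and CHORDC1 (chr11:90223050-90223199, minus strand) rose past the threshold used below, and HSPA8 (chr11:123062137-123062286, minus strand) rose by less.
HSPA6: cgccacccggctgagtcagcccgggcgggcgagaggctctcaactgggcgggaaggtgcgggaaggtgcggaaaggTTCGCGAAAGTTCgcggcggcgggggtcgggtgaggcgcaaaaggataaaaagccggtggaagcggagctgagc
HSPA1A: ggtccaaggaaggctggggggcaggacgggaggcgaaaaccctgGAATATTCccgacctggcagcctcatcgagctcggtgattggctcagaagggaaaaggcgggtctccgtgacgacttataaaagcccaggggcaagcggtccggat
DNAJB1: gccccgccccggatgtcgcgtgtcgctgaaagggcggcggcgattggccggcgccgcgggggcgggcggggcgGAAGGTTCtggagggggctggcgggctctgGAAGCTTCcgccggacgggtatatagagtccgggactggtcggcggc
CHORDC1: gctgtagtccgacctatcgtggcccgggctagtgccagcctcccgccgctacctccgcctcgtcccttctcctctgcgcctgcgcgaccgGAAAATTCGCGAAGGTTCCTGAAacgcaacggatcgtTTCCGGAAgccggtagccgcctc
HSPA8: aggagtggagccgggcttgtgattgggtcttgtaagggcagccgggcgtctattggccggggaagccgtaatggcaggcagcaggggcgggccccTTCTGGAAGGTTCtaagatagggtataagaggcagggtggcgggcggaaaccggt
In the whole window from 250 bases before to 50 bases after the start, 172 of 35116 starts in the table (0.49%) held a match of 3 units and 13.49% held a match of 2 units. Of 23 protein-coding genes of the chaperone lists that were altered upward, 21 (91.3%) had a promoter in the table, and 4 of these (19.05%) held 3 units and 13 (61.9%) held 2 units. The 4 were HSPA6, DNAJA1, CHORDC1 and HSPD1. Of 74 chaperone genes tested and not altered upward, 61 (82.4%) had a promoter, and 4 of these (6.56%) held 3 units and 13 (21.31%) held 2 units. HSPA8 was among the latter 4. Of all 574 protein-coding genes altered upward, 427 (74.4%) had a promoter in the table, of which 1.64% held 3 units and 18.03% held 2 units, against 0.4% and 13.21% of the 9514 genes with a promoter that were not altered. That comparison is void, since fewer than 80% of either set had a promoter. A match describes letters in the window and is not a measured binding site.

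A gene was called altered when its adjusted p (Benjamini-Hochberg over all genes tested, edgeR) was under 0.05 and its log2 fold change was above 1 or below -1. Of 15125 genes tested, 999 were altered (6.6%), 864 upward (5.71%) and 135 downward (0.893%). These p-values measure the spread between the 3 libraries of each group. Without the condition on the fold change, 4208 genes passed the adjusted p, 2126 upward and 2082 downward, and 5816 had an unadjusted p under 0.05. Counts of a list by either p are to be read beside these counts of all 15125 genes tested. The median log2 fold change of all genes tested was 0.003. Along the first principal component of the 12 SAS libraries, which held 61% of the variance, the 6 heated libraries scored between 35.63 and 43.23 and the 6 unheated libraries between -43.67 and -37.11. The RT and HT+RT libraries did not overlap for 853 of the 864 genes altered upward and for 134 of the 135 altered downward, as for 6512 of all 15125 genes tested, and the call itself favours groups that lie apart. In bulk RNA, more cells with a transcript and more of the transcript per cell cannot be told apart.

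**Figure D1:**
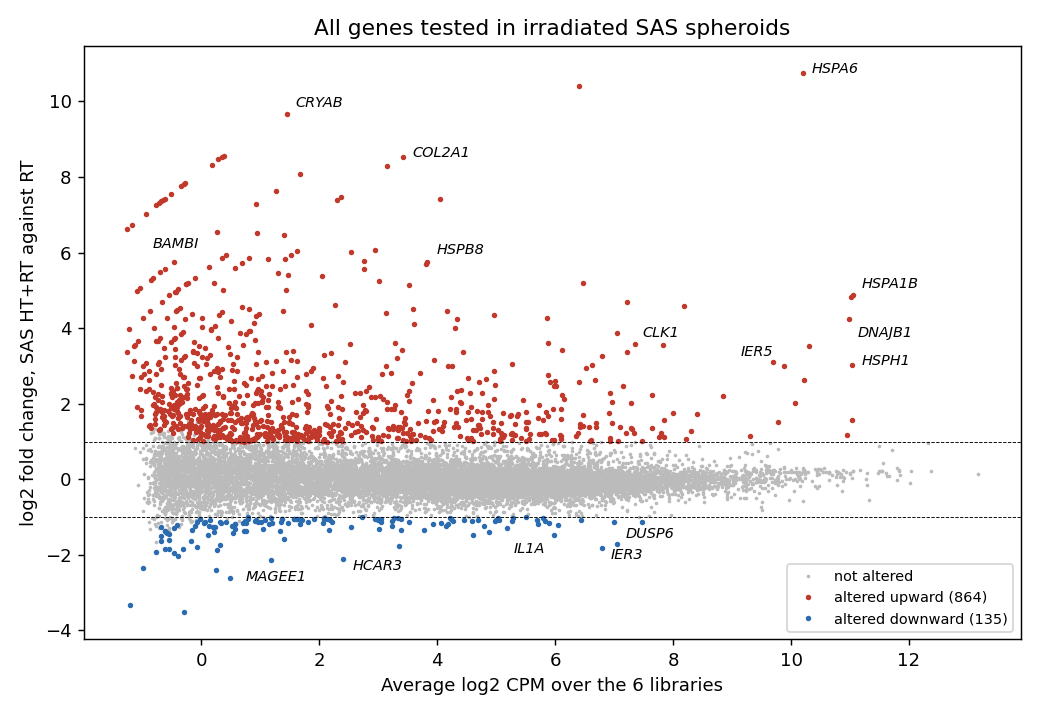
Each point is a gene tested in irradiated SAS spheroids, with its average log2 CPM over the 6 libraries on the horizontal axis and its log2 fold change of HT+RT against RT on the vertical axis, and the dashed lines mark 1 and -1. The 864 genes altered upward reach 10.76, at HSPA6, and the 135 altered downward lie mostly between -1 and -2.

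The genes altered upward started low: their median level was 0.937 CPM in RT and 3.49 CPM in HT+RT, and 441 of them (51.04%) had under 1 CPM in RT, against a median of 20.4 CPM and 1706 genes (11.28%) under 1 CPM among all genes tested. A gene with few counts in RT could pass the count filter through the heated libraries alone, and where at least 10 counts were asked of every library, 490 of 13597 genes were altered upward and 94 downward. With the main filter, the 864 genes altered upward had a median log2 fold change of 1.74, and 189 were above 3. The genes altered downward had a median of 3.97 CPM in RT and 1.68 CPM in HT+RT, a median log2 fold change of -1.17, and 2 values below -3. For 17 of the genes altered upward the 3 RT libraries held 0 counts, so a fold is a lower bound computed against 3 counts over the group, which covers counting error only. Of protein-coding genes, 574 were altered upward and 83 downward among 12626 tested (5.2%), and of all other types 290 upward and 52 downward among 2499 (13.69%). Antisense genes gave 99 of 794 (12.47%) and lincRNA genes 68 of 559 (12.16%). Of the 290 other genes altered upward, 34 (11.72%) overlapped a protein-coding gene that was altered upward, against 24 of 2157 (1.11%) of those not altered and 0 of 52 of those altered downward. The strand setting of the deposited counts is not given in the sources used here, so counts of overlapping genes may share reads.

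Among altered genes the 5 largest gains in mean CPM were those of HSPA1B, HSPA1A, DNAJB1, HSPH1 and HSPA6, and 3 of the 5 are inducible HSP70 genes. HSPA6 (ENSG00000173110), an HSP70 gene that is nearly silent without stress, had 1.75, 1.15 and 1.50 CPM in the RT libraries and 2306, 2398 and 2697 CPM in the HT+RT libraries. The groups were far apart in all 6 libraries, with means of 1.47 ± 0.299 CPM and 2467 ± 205 CPM, and the log2 fold change was 10.76 (SE 0.116, adjusted p 1.9e-13). HSPA7, a pseudogene beside HSPA6 whose sequence is so alike that reads may be shared, had 0.0564, 0.157 and 0.166 CPM in RT and 184, 174 and 174 CPM in HT+RT. Its heated libraries differed little from each other, and its log2 fold change was 10.40 (SE 0.138, adjusted p 9.2e-13). HSPA1A (ENSG00000204389), the main stress-induced HSP70, had 165, 177 and 114 CPM in RT and 4246, 4024 and 4396 CPM in HT+RT. RT replicate 3 was the lowest of its group, no libraries of the groups overlapped, and the log2 fold change was 4.83 (SE 0.146, adjusted p 7.5e-10). HSPA1B encodes the same protein and shares most of its sequence with HSPA1A, with 161, 166 and 121 CPM in RT and 4424, 3875 and 4591 CPM in HT+RT. Replicate 3 was again the lowest RT library, and the log2 fold change of HSPA1B was 4.88 (SE 0.125, adjusted p 2.1e-10). HSPA1L, a testis-enriched relative, rose from 2.18 ± 0.198 CPM to 40.2 ± 2.79 CPM, a log2 fold change of 4.24. All 5 genes of the list were altered upward, against 5.71% of all genes tested, with a median of 4.89. Summed, they took 0.0315%, 0.0334% and 0.0224% of the counts in RT and 1.04%, 0.975% and 1.10% in HT+RT. Per kilobase of exon in the heated libraries, HSPA1A had 1700 CPM, HSPA1B 1704 CPM and HSPA6 1040 CPM.

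**Figure D2:**
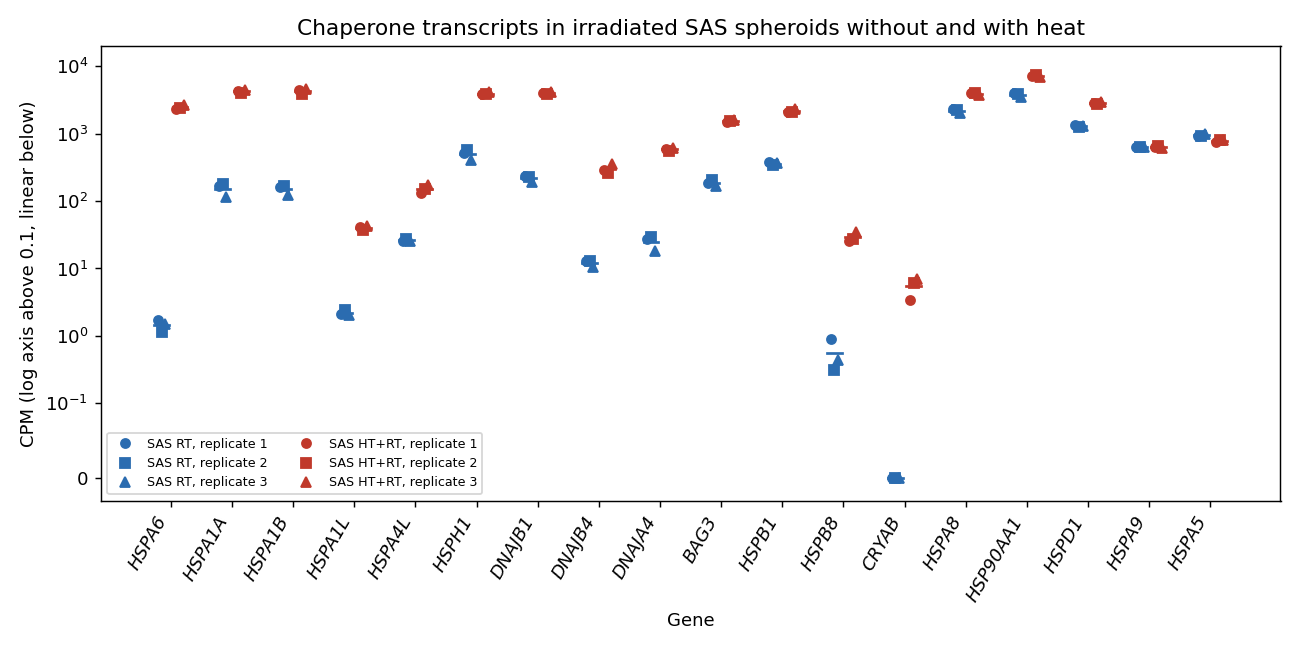
CPM of chaperone genes in each RT library (blue) and each HT+RT library (red) of SAS, on an axis that is logarithmic above 0.1 and linear below, with a bar at each group mean. HSPA6 rises from 1.47 to 2467 CPM and CRYAB from 0 to 5.47 CPM, while the points of HSPA9 overlap.

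Among constitutive HSP70 and HSP110 genes, 3 of 8 tested were altered upward and 0 downward, against 5.71% and 0.893% of all genes tested, with a median of 0.53. HSPH1, an HSP110 protein that releases nucleotide from HSP70, had 516, 564 and 401 CPM in RT and 3913, 3814 and 4091 CPM in HT+RT. All heated libraries were above all others, with a log2 fold change of 3.04 (SE 0.109, adjusted p 3.6e-09). HSPA4L, another HSP110 protein, rose from 26.5 ± 1.05 CPM to 153 ± 20.2 CPM (2.57 on the log2 scale), and HSPA4 from 428 ± 1.56 CPM to 914 ± 28.5 CPM (1.13). HSPA8, the HSP70 of unstressed cells, had 2283, 2216 and 2047 CPM in RT and 3951, 4001 and 3721 CPM in HT+RT. Its groups did not overlap, and its log2 fold change of 0.87 (SE 0.0554, adjusted p 5.4e-07) passed the adjusted p and stayed under 1. From other lists, HSPA5 of the endoplasmic reticulum fell by 0.22 on the log2 scale (adjusted p 0.0056), and HSPA9 of the mitochondrion had 629.5 and 634 CPM.

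DNAJ co-chaperones split: 6 of 25 tested were altered upward and 0 downward, against 5.71% and 0.893% of all genes tested, 8 upward and 5 downward passed the adjusted p alone, and the median was 0.03. DNAJB1 (ENSG00000132002), the HSP40 that works with inducible HSP70, had 238, 225 and 192 CPM in RT and 4063, 3903 and 4140 CPM in HT+RT. No library crossed between the groups, and the log2 fold change was 4.25 (SE 0.0833, adjusted p 3.1e-11). DNAJB4 rose from 12.01 ± 1.37 CPM to 302 ± 50.8 CPM (4.69), DNAJA4 from 25.0 ± 6.02 CPM to 585 ± 27.8 CPM (4.59), and DNAJA1 from 461 ± 50.1 CPM to 1812 ± 38.2 CPM (2.02). DNAJB2, which delivers clients to the proteasome, rose by 1.40 and DNAJB5 by 1.07 on the log2 scale. Without RT replicate 3, DNAJB5 was at 0.93 and no longer altered. Among nucleotide exchange factors of HSP70, 1 of 8 was altered upward, against 5.71% of all genes tested, and 3 passed the adjusted p alone upward, with a median of 0.14. BAG3, which also leads HSP70 clients to autophagy, had 188, 204 and 166 CPM in RT and 1473, 1553 and 1615 CPM in HT+RT, and all heated libraries were higher, with a log2 fold change of 3.10 (SE 0.0780, adjusted p 2.0e-10).

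Small heat shock proteins bind unfolding chains without ATP, and 4 of the 5 tested of 10 listed were altered upward, against 5.71% of all genes tested, with a median of 2.62 that was the same with CRYAB at its bound. HSPB1 had 374, 339 and 363 CPM in RT and 2073, 2080 and 2296 CPM in HT+RT. The groups were separate, and the log2 fold change was 2.62 (SE 0.0601, adjusted p 8.8e-11). HSPB8, the partner of BAG3, had 0.902, 0.315 and 0.444 CPM in RT and 25.4, 27.0 and 35.1 CPM in HT+RT, with a log2 fold change of 5.76 (SE 0.2496, adjusted p 1.7e-08). RT replicate 1 was its highest RT library and HT+RT replicate 3 its highest heated library. CRYAB, alpha-B crystallin, had 0 counts in all RT libraries and 3.40, 6.12 and 6.89 CPM (303 counts) in the HT+RT libraries, at least 99.9-fold higher. HSPB9 rose by 2.43 on the log2 scale (adjusted p 0.0013).

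HSP90 and its co-chaperones, which fold kinases and steroid receptors, had 3 of 17 altered upward and 0 downward, against 5.71% and 0.893% of all genes tested, and 10 upward and 1 downward that passed the adjusted p alone, with a median of 0.49. FKBP4, a co-chaperone of steroid receptors, had 191, 169 and 167 CPM in RT and 806, 759.7 and 820.2 CPM in HT+RT. The groups did not overlap, and the log2 fold change was 2.22 (SE 0.0656, adjusted p 6.7e-10). CHORDC1, whose promoter held the most matches of those printed, rose from 122 ± 22.9 CPM to 302 ± 20.6 CPM (1.35), and AHSA1, the activator of the HSP90 ATPase, from 198 ± 12 CPM to 467 ± 18.1 CPM (1.28). HSP90AA1, the inducible HSP90, had 3948, 3910 and 3492 CPM in RT and 7153, 7314 and 6887 CPM in HT+RT. All heated libraries were higher, yet its log2 fold change of 0.95 (SE 0.0573, adjusted p 3.5e-07) stayed under 1. The summed level of the list was 9046, 8793 and 8302 CPM in RT and 15720, 16120 and 15730 CPM in HT+RT. The cytosolic chaperonin TRiC with prefoldin had 0 of 14 altered by edgeR (median 0.20), of which 8 passed the adjusted p alone upward and 1 downward and 10 had an unadjusted p under 0.05. Of 16 mitochondrial chaperones 2 were altered upward (median 0.03), against 5.71% of all genes tested, and 2 upward and 2 downward passed the adjusted p alone. HSPD1 (HSP60) had 1363, 1268 and 1284 CPM in RT and 2881, 2777 and 2953 CPM in HT+RT and a log2 fold change of 1.18 (SE 0.0501, adjusted p 1.5e-08), and HSPE1 (HSP10), on the same chromosome beside it, had 1.06. Of 4 genes of the HSF list tested, 0 were altered by edgeR (median 0.11), with 1 upward and 1 downward by the adjusted p alone and 2 at an unadjusted p under 0.05, and HSF1 itself had 186 ± 4.03 CPM in RT and 187 ± 6.41 CPM in HT+RT.

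Genes of protein disposal moved in part. Of 16 tested in the ubiquitin and clearance list, 3 were altered upward (median 0.09), against 5.71% of all genes tested, and 6 upward and 2 downward passed the adjusted p alone. UBB, a polyubiquitin gene, had 521, 484 and 463 CPM in RT and 1382, 1279 and 1418 CPM in HT+RT. The heated libraries of UBB were all higher, with a log2 fold change of 1.51 (SE 0.0624, adjusted p 1.2e-08). ZFAND2A, an arsenite- and heat-inducible zinc finger protein of the proteasome, had 18.4, 17.9 and 18.0 CPM in RT and 272, 257 and 248.8 CPM in HT+RT. Its libraries lay close within each group, and the log2 fold change was 3.88 (SE 0.0653, adjusted p 9.2e-12). Proteasome subunits had 0 of 31 altered by edgeR, 1 past the adjusted p alone and a median of 0.06. Of the 31, 8 had an unadjusted p under 0.05, against 5816 of all 15125 genes tested. The sum of the subunits was 5468, 5278 and 5327 CPM in RT and 5404, 5495 and 5286 CPM in HT+RT. Chaperones of the endoplasmic reticulum had 0 of 21 altered by edgeR, with a median of -0.04, and the 8 with an unadjusted p under 0.05, 2 upward and 6 downward, also passed the adjusted p. The sensors of the unfolded protein response with XBP1 had 0 of 5 altered by edgeR, with a median of 0.00, 2 upward by the adjusted p alone and 4 at an unadjusted p under 0.05. DESeq2 also called 0 genes in each of these lists, in TRiC with prefoldin, in the HSF list and among the epithelial markers.

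**Figure D3:**
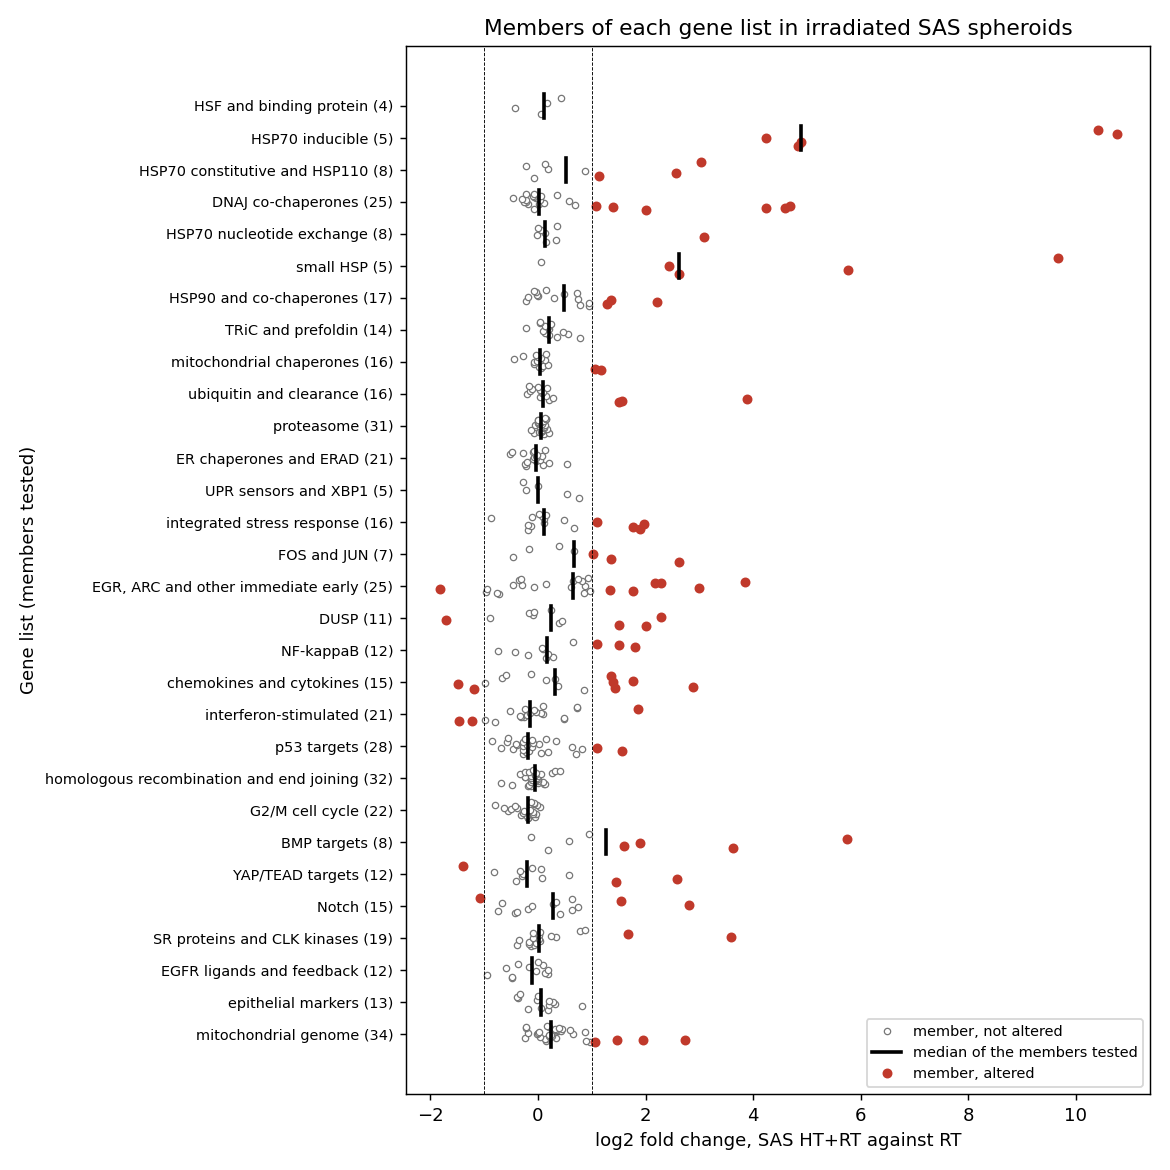
Log2 fold changes of HT+RT against RT in SAS for the tested members of each list, with the number tested in parentheses, filled points for altered members and a bar at the median. The inducible HSP70 genes lie between 4.24 and 10.76, while all 31 proteasome genes lie between the dashed lines at -1 and 1.

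The integrated stress response acts through the translation of ATF4 and includes CHAC1, ATF3 and PPP1R15A, and 4 of 16 genes tested were altered upward (median 0.11), against 5.71% of all genes tested, and 7 upward and 1 downward passed the adjusted p alone. PPP1R15A, the phosphatase subunit that restores translation, had 118, 127 and 131 CPM in RT and 421, 435 and 385 CPM in HT+RT. The groups did not overlap, and the log2 fold change was 1.76 (SE 0.0624, adjusted p 3.3e-09). ATF3, a stress-induced repressor, rose from 10.8 ± 4.26 CPM to 39.4 ± 3.85 CPM (1.91), and CHAC1, which breaks down glutathione, from 2.90 ± 1.06 CPM to 11.04 ± 2.23 CPM (1.96). SESN2, a sestrin that restrains mTORC1, rose by 1.10, and it fell under the threshold without RT replicate 1 (0.97) or without HT+RT replicate 2 (0.997).

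Immediate early genes rose or fell. Of 7 FOS and JUN genes, which form the factor AP-1, 3 were altered upward (median 0.66), against 5.71% of all genes tested, and 5 upward and 1 downward passed the adjusted p alone. FOS had 25.5, 25.1 and 42.0 CPM in RT and 207, 156 and 189 CPM in HT+RT. RT replicate 3 was the highest RT library and still under every heated library, with a log2 fold change of 2.62 (SE 0.172, adjusted p 7.1e-07). FOSB rose by 1.35 and FOSL2 by 1.03, the latter to 0.97 without RT replicate 3, while JUN rose by 0.66 and was not altered. Of 25 other immediate early genes, 6 were altered upward and 1 downward (median 0.65), against 5.71% and 0.893% of all, and 14 upward and 7 downward passed the adjusted p alone. IER5, which binds the phosphatase PP2A and activates HSF1, had 252, 229 and 199 CPM in RT and 1880, 1652 and 1711 CPM in HT+RT. All heated libraries were higher, with a log2 fold change of 2.99 (SE 0.0897, adjusted p 7.1e-10). NR4A3, an orphan nuclear receptor, rose from 0.221 ± 0.193 CPM to 3.15 ± 0.875 CPM (3.85), and its relatives NR4A1 and NR4A2 by 2.29 and 2.18. ARC rose by 1.78 and NAB2, a corepressor of EGR proteins, by 1.34. IER3, an early survival gene, had 202, 182 and 174 CPM in RT and 49.1, 57.8 and 46.3 CPM in HT+RT. It was lower in all heated libraries, with a log2 fold change of -1.83 (SE 0.0875, adjusted p 4.1e-08). EGR1 had 840.2, 886 and 1187 CPM in RT and 578, 564 and 573 CPM in HT+RT. The heated libraries were below all RT libraries, and the log2 fold change of -0.72 (SE 0.1003, adjusted p 0.00028) did not reach -1.

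DUSP genes encode phosphatases that switch off MAP kinases, and 3 of 11 were altered upward and 1 downward (median 0.25), against 5.71% and 0.893% of all genes tested, with 3 and 2 by the adjusted p alone. DUSP1 rose from 66.3 ± 5.83 CPM to 261 ± 7.59 CPM (2.02), and DUSP8 from 0.400 ± 0.0674 CPM to 1.90 ± 0.725 CPM (2.29). DUSP2 had 69.99, 72.1 and 69.2 CPM in RT and 191, 209.5 and 182 CPM in HT+RT, with no overlap and a log2 fold change of 1.50 (SE 0.0638, adjusted p 1.5e-08). DUSP6, which acts on ERK and rises with ERK signalling, had 254, 225 and 173 CPM in RT and 61.7, 79.8 and 52.7 CPM in HT+RT. The heated libraries were all lower, with a log2 fold change of -1.71 (SE 0.155, adjusted p 1.1e-05). Ligands and feedback genes of EGFR had 0 of 12 altered by edgeR and DESeq2 (median -0.10), with 4 downward by the adjusted p alone and the same number at an unadjusted p under 0.05. EREG, an EGFR ligand, was called by edgeR without RT replicate 3, HT+RT replicate 1 or HT+RT replicate 2.

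Of 12 NF-κB genes, 3 were altered upward (median 0.17), against 5.71% of all genes tested, and 4 upward and 2 downward passed the adjusted p alone. NFKBIZ, an inducible nuclear cofactor, had 10.2, 16.5 and 9.87 CPM in RT and 44.1, 40.9 and 40.4 CPM in HT+RT, and TNFAIP3, the A20 brake on the pathway, rose from 25.3 ± 3.87 CPM to 70.4 ± 5.64 CPM (1.51). The heated libraries of NFKBIZ were all higher, with a log2 fold change of 1.81 (SE 0.163, adjusted p 9.8e-06). BIRC3 rose by 1.10 (adjusted p 0.026), but it was not altered without RT replicate 1 (0.94), RT replicate 3 (0.84), HT+RT replicate 1 (1.07) or HT+RT replicate 2 (0.86), nor by DESeq2 (1.11, adjusted p 0.104, with a range from 1.7e-15 to 1 over all alternatives). Of 15 chemokine and cytokine genes tested, 5 were altered upward and 2 downward (median 0.32), against 5.71% and 0.893% of all, with 6 and 4 by the adjusted p alone. CCL2, which attracts monocytes, had 0.508, 0.262 and 0.277 CPM in RT and 3.33, 2.57 and 1.76 CPM in HT+RT, with a log2 fold change of 2.88 (SE 0.391, adjusted p 0.00023) and no overlap. IL11 rose by 1.77, CXCL8 by 1.44, IL6 by 1.39 and CSF1 by 1.36. IL1A, an alarmin of keratinocytes, had 109, 109 and 80.0 CPM in RT and 35.2, 40.5 and 28.1 CPM in HT+RT. Each heated library was lower, with a log2 fold change of -1.48 (SE 0.141, adjusted p 1.5e-05), and CXCL2 fell by 1.18.

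Of 21 interferon-stimulated genes tested, 1 was altered upward and 2 downward (median -0.15), against 5.71% and 0.893% of all genes tested, with 2 and 6 by the adjusted p alone. STAT2, a part of the factor that drives such genes, had 33.6, 33.8 and 28.9 CPM in RT and 114, 110.2 and 115 CPM in HT+RT. Every heated library was higher, with a log2 fold change of 1.86 (SE 0.0745, adjusted p 1.0e-08). IFIT2, an antiviral RNA-binding protein, fell from 38.1 ± 6.53 CPM to 13.6 ± 3.49 CPM (-1.46), and IFIT3 from 41.5 ± 5.71 CPM to 17.3 ± 2.42 CPM (-1.23).

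Of 28 p53 targets, 2 were altered upward and 0 downward (median -0.19), near the 5.71% and 0.893% of all genes tested. By the adjusted p alone 6 were upward and 7 downward, against 2126 and 2082 of all 15125 genes tested. PMAIP1, which encodes the death protein NOXA, had 30.8, 30.4 and 29.2 CPM in RT and 83.7, 90.2 and 87.0 CPM in HT+RT, and SESN2 was the other. PMAIP1 was higher in all heated libraries, with a log2 fold change of 1.57 (SE 0.0632, adjusted p 1.0e-08). CDKN1A, the p21 inhibitor of the cell cycle, had 113 and 181 CPM and MDM2, which removes p53, 74.9 and 60.1 CPM, and neither was altered. Of 32 genes of homologous recombination and end joining, 0 were altered by edgeR and DESeq2 (median -0.05), with 2 upward and 5 downward by the adjusted p alone. Of the 32, 9 had an unadjusted p under 0.05, against 5816 of all 15125 genes tested. BRCA1 had 111 ± 4.48 CPM in RT and 95.6 ± 6.65 CPM in HT+RT. Of 22 genes of G2 and mitosis, 0 were altered by edgeR or DESeq2 (median -0.19). By the adjusted p alone 12 of them were downward, against 2082 of all 15125 genes tested. An unadjusted p under 0.05 was found for 14, against 5816 of all. The sum of the 22 genes was 3442, 3338 and 3396 CPM in RT and 2941, 2870 and 2769 CPM in HT+RT. CCNF, a cyclin of a ubiquitin ligase, fell furthest in that list, with a change from 62.3 ± 0.537 CPM to 35.0 ± 1.78 CPM and a log2 fold change of -0.79 (SE 0.0660, adjusted p 5.2e-06).

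In signalling lists, 4 of 8 BMP target genes tested were altered upward (median 1.27), against 5.71% of all genes tested, and 5 upward and 0 downward passed the adjusted p alone. ID2, a repressor of basic helix-loop-helix factors, had 0.790, 0.996 and 2.94 CPM in RT and 16.4, 18.9 and 21.1 CPM in HT+RT. The groups were separate, with a log2 fold change of 3.62 (SE 0.309, adjusted p 6.5e-06), and ID3 rose by 1.59. BAMBI, a decoy receptor, had 1 count in RT and 71 in HT+RT, a ratio of 72.4 with a 95% counting interval from 12.6 to 2900. SMAD6 rose by 1.90 (adjusted p 0.011) and was not altered without RT replicate 3 (adjusted p 0.0547) or by DESeq2 (1.95, adjusted p 0.0589), in a range from 0.0047 to 0.33 over all alternatives. Of 12 YAP and TEAD targets, 2 were altered upward and 1 downward (median -0.20), against 5.71% and 0.893% of all, while 3 upward and 6 downward passed the adjusted p alone. ANKRD1 was at 2.59, CTGF at 1.46 and FJX1 at -1.39. Of 15 Notch genes tested, 2 were altered upward and 1 downward (median 0.27), against the same shares of all, and 6 upward and 5 downward passed the adjusted p alone. DLL4, a Notch ligand, had 0.226, 0.157 and 0 CPM in RT and 0.733, 1.13 and 0.829 CPM in HT+RT, with a log2 fold change of 2.80 (SE 0.599, adjusted p 0.0048) and no overlap. HEY1 rose by 1.54 and was not altered without HT+RT replicate 2 (adjusted p 0.0525, range 0.0014 to 0.82), and LFNG had -1.08, with -0.95 without RT replicate 3 and -0.996 without HT+RT replicate 1.

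Of 19 genes of SR proteins, which act in splicing, and the CLK kinases that phosphorylate them, 2 were altered upward (median 0.01), against 5.71% of all genes tested, and 6 upward and 2 downward passed the adjusted p alone. CLK1 had 24.4, 28.6 and 28.4 CPM in RT and 311, 309 and 329 CPM in HT+RT. Its libraries lay close within each group and far from the other group, with a log2 fold change of 3.58 (SE 0.0714, adjusted p 3.1e-11), and CLK4 rose by 1.67. Of 34 genes of the mitochondrial genome, 4 were altered upward (median 0.24), against 5.71% of all genes tested, and 9 passed the adjusted p alone upward. The 4 were transfer RNAs: MT-TI at 2.74, MT-TQ at 1.95, MT-TM at 1.48 and MT-TV at 1.05. MT-TV was at 0.99 without RT replicate 1, 0.93 without RT replicate 3 and 0.92 without HT+RT replicate 1. The share of counts in that genome was 1.57 to 2.27% in the RT libraries and 1.70 to 2.20% in the HT+RT libraries. Of 79 ribosomal protein genes, 1 was altered upward (median 0.21), against 5.71% of all genes tested. By the adjusted p alone 66 were upward and 2 downward, against 2126 and 2082 of all 15125 genes tested. The altered gene was RPL3L, a relative of RPL3 known from muscle, at 0.275 CPM in RT and 0.983 CPM in HT+RT (1.87). Of 14 replication-dependent histone genes tested of 90 listed, 0 were altered by edgeR, with 1 upward by the adjusted p alone, 4 at an unadjusted p under 0.05, 1 altered by DESeq2 and a median of 0.41. Zinc finger genes of the C2H2 kind had 23 altered upward and 5 downward of 356 tested (median 0.09), near the 5.71% and 0.893% of all genes tested, with 83 and 30 by the adjusted p alone. Small nucleolar and Cajal body RNAs had 4 upward and 4 downward of 22 tested of 451 listed (median -0.21), with the same numbers by the adjusted p alone. Both shares of these RNAs lay above the 5.71% and 0.893% of all genes tested.

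Several of the highest fold changes outside the chaperones were of genes that were almost without counts in RT. COL2A1, the collagen of cartilage, had 3 counts in RT and 1211 in HT+RT, a ratio of 411 with a 95% counting interval from 140 to 2000. PNLDC1, an exonuclease that trims piRNAs, had 3 and 997 counts, a ratio of 339 (116 to 1650). RFPL2 had 1 and 350 counts, a ratio of 357 (63.6 to 14100). These ratios rest on the few RT counts, as the width of the intervals shows. CACNA1G, a T-type calcium channel, had 1 and 265 counts (ratio 270, interval 48.1 to 10700), and SESN3, a sestrin, had 3 and 574 counts (ratio 195, interval 66.4 to 948). TNFSF14, the cytokine LIGHT, rose from 0.235 ± 0.0745 CPM to 15.9 ± 1.90 CPM (6.07), and RFTN2 from 0.180 ± 0.109 CPM to 11.96 ± 3.47 CPM (6.02). NHLH1, a helix-loop-helix factor of neurons, reached 5.87 ± 0.729 CPM (5.94), RBFOX3, a neuronal splicing factor, 5.44 ± 1.60 CPM (5.83), and PPP1R3C, which directs a phosphatase to glycogen, 4.40 ± 0.586 CPM (5.82). The RT libraries held 5 counts of NHLH1, 4 of PPP1R3C and 5 of RBFOX3, the last all in RT replicate 2. The folds of these genes rest on those few counts. HSPE1-MOB4, a readthrough gene whose exons are those of HSPE1 and MOB4, had 5.78.

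Some of the named genes of other types overlapped another gene, and whether their changes depended on it was not tested. AC093591.3, a processed pseudogene on the same strand as HSPA4L and overlapping it, had 3 counts in RT and 548 in HT+RT, a ratio of 186 (95% counting interval 63.4 to 905). AC021739.2, an antisense gene, had 3 and 290 counts, a ratio of 98.5 (33.4 to 480). AC005841.1, on the strand opposite FKBP4, rose by 6.05 and AC139100.2 by 5.58 on the log2 scale. Among those whose log2 CPM averaged 1 or more and whose groups lay apart, the lowest were ANKRD10-IT1 at -1.34, AC010761.1 at -1.34, AC006978.1 at -1.16, AC007383.2 at -1.15 and AC011815.1 at -1.14. AC007383.2 was at -0.94 without HT+RT replicate 2.

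Losses were smaller than gains. MAGEE1 had 3.72, 3.41 and 4.16 CPM in RT and 0.599, 1.28 and 0.570 CPM in HT+RT, with a log2 fold change of -2.13 (SE 0.302, adjusted p 0.00032). That was the lowest value among altered protein-coding genes whose log2 CPM averaged 1 or more and whose groups lay fully apart. HCAR3 and HCAR2, neighbouring receptors of hydroxy acids that share most of their sequence, fell from 8.996 ± 0.914 CPM to 2.01 ± 0.499 CPM (-2.11) and from 16.7 ± 2.84 CPM to 4.78 ± 1.29 CPM (-1.76). OTX1, a homeobox factor, had -1.59, LY6G5B -1.38 and HOXD9, another homeobox factor, -1.26 on the log2 scale. TADA1, a subunit of the SAGA coactivator, fell from 20.8 ± 2.35 CPM to 8.02 ± 1.07 CPM (-1.33). BLOC1S3 and HPS6, subunits of complexes that form lysosome-related organelles, had -1.31 and -1.29, and NDST2, which sulfates heparan, had -1.31. By CPM lost among altered genes, DUSP6, TNS4, IER3, AMD1 and NRIP1 led. TNS4, a tensin of focal adhesions, had 290.2, 297 and 195 CPM in RT and 134, 137 and 77.2 CPM in HT+RT. HT+RT replicate 3 was its lowest library, and RT replicate 3 was the lowest of the RT group. Without HT+RT replicate 3 the log2 fold change of TNS4, -1.13, became -0.91, while the replicate block kept its call. AMD1, an enzyme of polyamine synthesis, fell from 188 ± 8.91 CPM to 84.4 ± 6.50 CPM (-1.12), and NRIP1, a corepressor of nuclear receptors, from 126 ± 10.5 CPM to 58.4 ± 2.53 CPM (-1.07).

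Whether heat acted alike without irradiation was asked of the other 6 SAS libraries, HT against control, which share no library with the comparison above. There, 904 of 15000 genes were altered (6.03%), 797 upward (5.31%) and 107 downward (0.713%), while 1823 upward and 1717 downward passed the adjusted p alone. Across the 14740 genes tested in both, Pearson's r of the log2 fold changes was 0.903 and Spearman's rho 0.775, a description over genes that are not independent replicates. Of the 999 genes altered in irradiated spheroids, 929 were tested in unirradiated ones and 921 of these (99.1%) had the same sign, against 80.1% of the genes that were not altered. Both lists held 670 genes with the same sign, 67.1% of the irradiated list and 74.1% of the other, and 0 with opposite signs. HSPA6 had 11.36 without irradiation and 10.76 with it, DNAJB1 4.23 and 4.25, and IER3 -1.59 and -1.83.

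**Figure D4:**
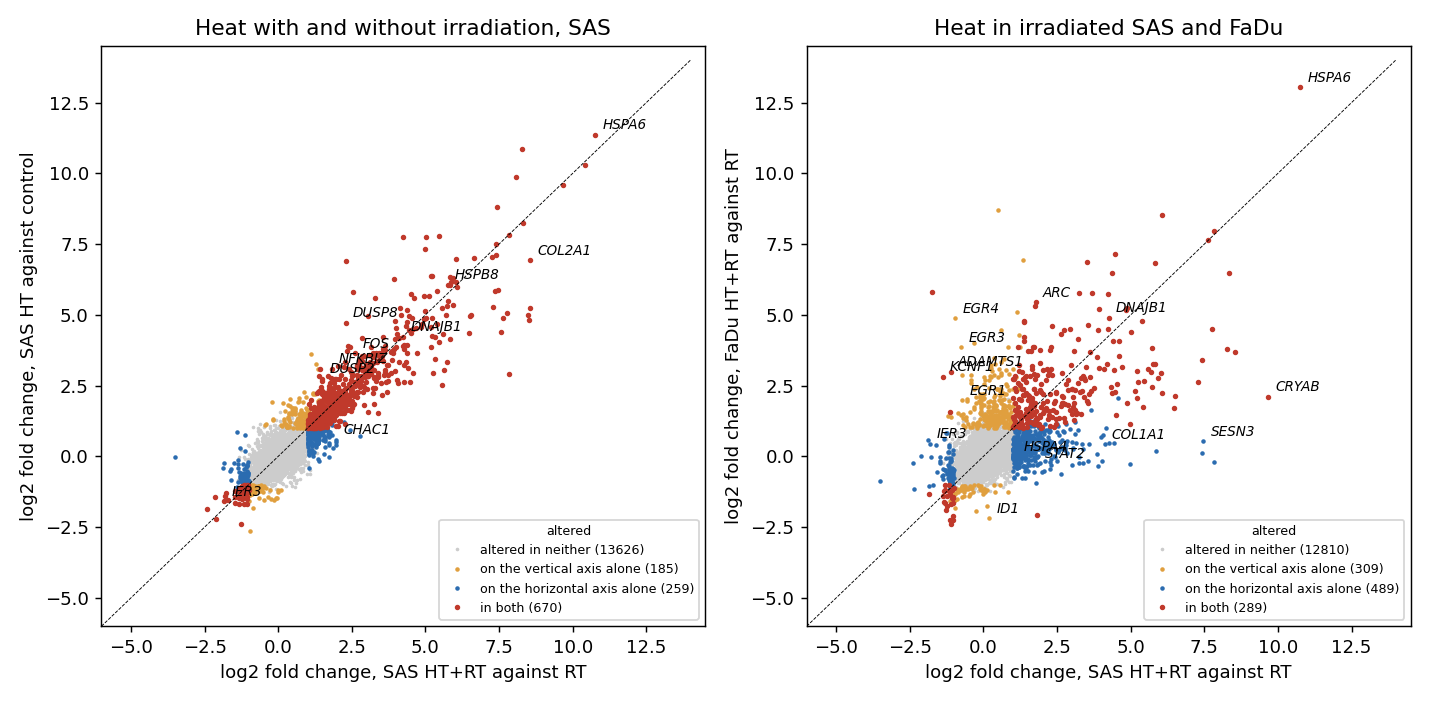
Log2 fold change of heat in irradiated SAS spheroids on both horizontal axes, against heat in unirradiated SAS spheroids (left) and against heat in irradiated FaDu spheroids (right), with 1 point per gene tested in both, colours for where it was altered and a dashed line of equal values. The left panel lies closer to the line (r 0.903) than the right (r 0.603).

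The difference between the heat effects with and without irradiation was tested as an interaction over the 12 SAS libraries, and 1 of 15833 genes was altered (0.00632%), with 629 at an unadjusted p under 0.05. That gene was DUSP2, a nuclear phosphatase of ERK and p38. It had 25.3, 32.3 and 36.8 CPM in the control libraries, 69.99, 72.1 and 69.2 CPM in RT, 206, 230.2 and 183 CPM in HT and 191, 209.5 and 182 CPM in HT+RT. Irradiated spheroids without heat stood above the controls, while the heated groups overlapped. Heat gave 2.75 without irradiation and 1.50 with it, and the interaction was -1.25 (SE 0.154, adjusted p 0.01). Without RT replicate 2 it was -1.22 (adjusted p 0.0538, with a range from 2.8e-31 to 1 over all alternatives) and 0 genes were altered, with 546 at an unadjusted p under 0.05. Apart from that fit, only glmTreat, which tests for a fold beyond the threshold, did not call DUSP2. DESeq2 called 3 genes: DUSP2, AC121338.2 at -3.56 and MT-TT at -2.15, of which AC121338.2 was chosen after its values were seen. With a block for libraries of the same number, 5 genes were called: DUSP2, AC121338.2, MT-TT, NFKBIZ at -1.27 and FILIP1L at 1.06, the last chosen after its values were seen. Without control replicate 3, EGR1 was called as well (-1.35), and without RT replicate 1, DDIT4 was (1.13), a gene chosen after its values were seen. A p that misses the threshold does not show that the effects were equal.

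**Figure D5:**
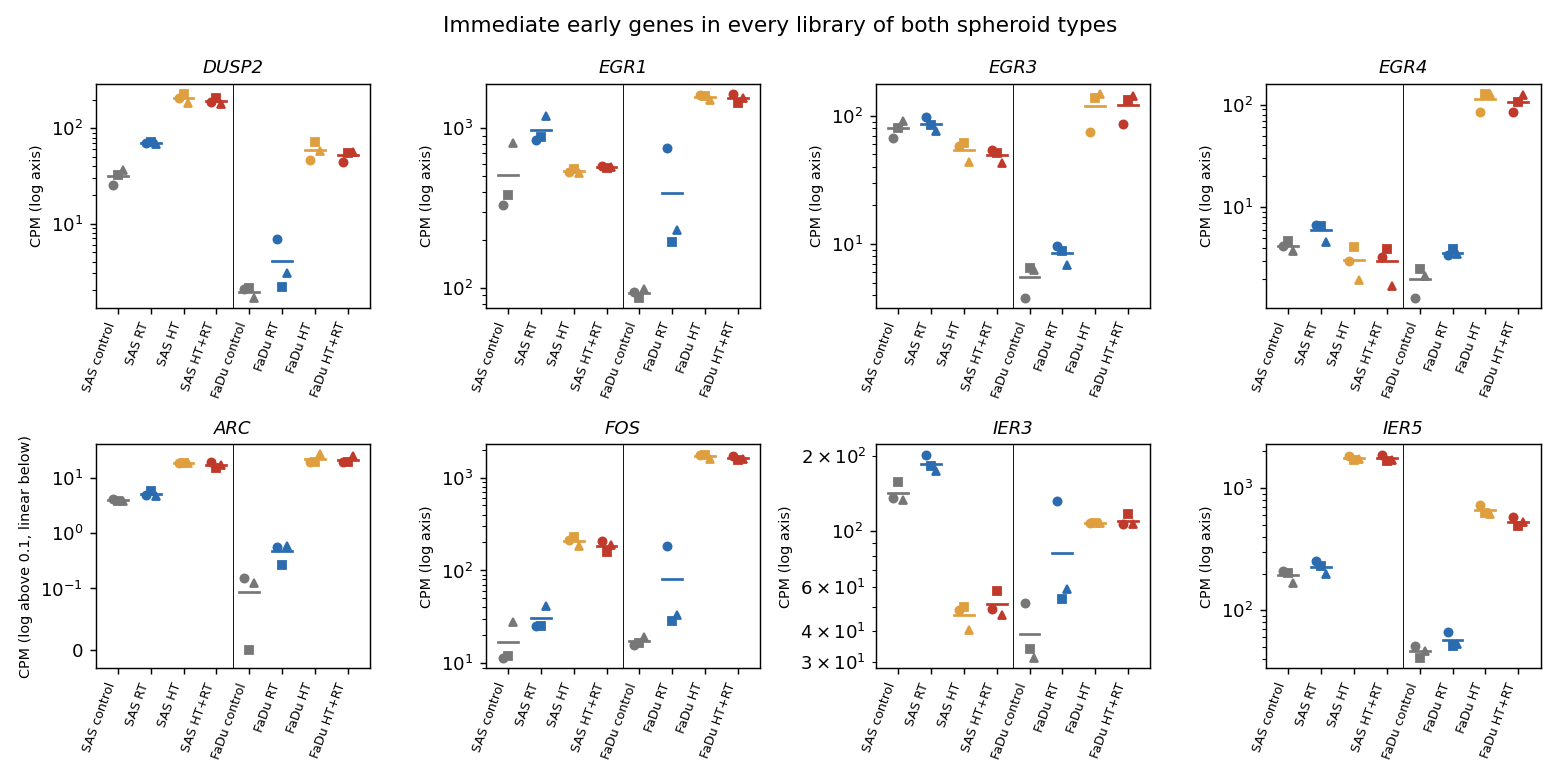
CPM of immediate early genes in each library of the 8 groups, SAS left and FaDu right of the line in each panel, on log axes (ARC linear below 0.1), with a bar at each group mean. In irradiated spheroids the means of EGR3 and EGR4 are lower with heat in SAS and higher with heat in FaDu, while IER5 is higher with heat in both.

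Heat in irradiated spheroids was also compared with the same heat in FaDu, where the dose was 7 Gy, so line and dose cannot be told apart. In FaDu, 857 of 15905 genes were altered (5.39%), 757 upward (4.76%) and 100 downward (0.629%), while 1490 upward and 1574 downward passed the adjusted p alone. Without FaDu RT replicate 1, which stood above its fellows for EGR1, FOS and IER3, 902 were altered. Replicate 1 stood apart in both FaDu groups. Between it and the other 2 libraries, the mean chi-square per gene was 16.1 and 16.2 in RT and 16.9 and 20.4 in HT+RT, against 3.74 between the other 2 in each group. Without FaDu HT+RT replicate 1, 1050 were altered. Across 13897 genes tested in both lines, r was 0.603 and rho 0.495. Both lists held 284 genes with the same sign, 28.4% of the SAS list and 33.1% of the FaDu list, and 5 with opposite signs. The interaction of line and heat was altered for 583 of 17376 genes (3.36%), 351 higher in SAS (2.02%) and 232 lower (1.34%). It was altered for 598 genes without FaDu RT replicate 1 and for 619 without FaDu HT+RT replicate 1. Of the 351, 181 were altered upward in SAS and not altered in FaDu, and of the 232, 114 were altered upward in FaDu and not altered in SAS.

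Among genes with the larger heat effect in SAS, CRYAB, at 0 in SAS RT, had 2.33 and 10.0 CPM in FaDu. The fitted interaction of CRYAB was 7.70 (adjusted p 0.00069), a value that depends on the prior count. SESN3 had 10.1 and 14.4 CPM in FaDu (interaction 6.97). FAM83C and FOXL1 had too few counts to be tested in SAS alone. FAM83C had 0 counts in SAS RT, 0.266, 0.565 and 0.414 CPM in SAS HT+RT and means of 4.26 and 3.05 CPM in FaDu (interaction 6.59). FOXL1 had 0 counts in SAS RT, 1.47, 0.463 and 0.673 CPM in SAS HT+RT and means of 3.38 and 5.05 CPM in FaDu (interaction 6.51), and both values depend on the prior count. The adjusted p of FOXL1, a forkhead factor, was 0.042 and rose to between 0.0527 and 0.0974 in 8 of the 12 fits that left out a library, those without FaDu RT replicate 2, FaDu HT+RT replicate 2 or 3, SAS RT replicate 1, 2 or 3, or SAS HT+RT replicate 1 or 3. Over all alternatives it ran from 2.8e-07 to 0.27. STAT2 had 158, 140.0 and 143 CPM in FaDu RT and 139, 110.2 and 114 CPM in FaDu HT+RT. The heated FaDu libraries were all lower than the FaDu RT libraries, where in SAS they were all higher, and the interaction of STAT2 was 2.14 (SE 0.129, adjusted p 2.3e-07). COL1A1 had 41.9 and 55.9 CPM in FaDu and an interaction of 3.70 (SE 0.238, adjusted p 3.5e-07). HSPA4 had 409 and 402 CPM there and an interaction of 1.17 (SE 0.0721, adjusted p 2.5e-07).

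In the other direction, 13 of 25 immediate early genes were lower and 1 was higher in SAS by the interaction, against 1.34% and 2.02% of all genes. EGR4 had 6.66, 6.55 and 4.55 CPM in SAS RT and 3.26, 3.90 and 1.71 CPM in SAS HT+RT. In FaDu it had 3.39, 3.89 and 3.49 CPM and 85.7, 106 and 123 CPM, and the interaction was -5.84 (SE 0.320, adjusted p 9.5e-08). Heated FaDu libraries were all above the FaDu RT libraries, and heated SAS libraries all below the SAS RT libraries. EGR3 fell in SAS, from 86.0 ± 10.7 CPM to 49.5 ± 5.86 CPM, and rose in FaDu, from 8.44 ± 1.44 CPM to 120.5 ± 29.7 CPM, with an interaction of -4.60 (SE 0.2502, adjusted p 9.5e-08). EGR1 had 754, 194 and 230.4 CPM in FaDu RT and 1643, 1446 and 1551 CPM in FaDu HT+RT, with FaDu RT replicate 1 far above the others of its group, and its interaction was -2.69 (SE 0.503, adjusted p 0.0039). ARC and ADAMTS1, a secreted protease, had interactions of -3.65 and -4.08. HSPA6 had 0.770, 0.746 and 0.235 CPM in FaDu RT and 4254, 4759 and 5043 CPM in FaDu HT+RT. The heated FaDu libraries stood above the heated SAS libraries, with an interaction of -2.27, and HSPA7, with 2 counts in FaDu RT, had a fitted -4.54 that depends on the prior count. Altered with opposite signs in the lines were ADAMTS1 (-1.10 in SAS and 2.99 in FaDu), KCNF1 (-1.38 and 2.81), RPSAP52 (-1.13 and 1.57), AL353796.1 (1.82 and -2.08) and AC037198.2 (-1.73 and 5.81). AC037198.2 had 2 counts in FaDu RT and 133 in FaDu HT+RT, so its FaDu value depends on the prior count too. Of these, ADAMTS1 was at -0.74 in SAS without RT replicate 3. KCNF1 was not altered without SAS RT replicate 3 or any 1 of the 3 HT+RT libraries (adjusted p from 0.0526 to 0.101) or by DESeq2 (0.0965). RPSAP52 was not altered without SAS RT replicate 1 or 2 or HT+RT replicate 2 or 3 (adjusted p from 0.0649 to 0.0929), nor in FaDu without RT replicate 2 or 3 or HT+RT replicate 2 or 3 (0.0605 to 0.106). AL353796.1 was not altered without SAS RT replicate 1 or 2 or any 1 of the 3 HT+RT libraries (adjusted p from 0.0604 to 0.130), by DESeq2 (0.0516), or in FaDu without RT replicate 3 (0.0533) or HT+RT replicate 3 (0.0736). Over all alternatives the adjusted p ran from 0.021 to 1 for KCNF1, from 0.00082 to 1 for RPSAP52 and from 0.01 to 0.87 for AL353796.1 in SAS, and from 0.0092 to 0.74 and from 0.0026 to 0.19 for the last 2 in FaDu.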

How the data were processed

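RNA of 24 spheroid libraries was sequenced, and the deposited raw counts per Ensembl gene, made by the authors, were joined by gene identifier. The labels name the build mm9, which does not match the human identifiers of the counts, and the aligner, counter, strand setting and annotation are not given in the sources used here. Gene names and types came from GENCODE 29, and promoters from RefSeq on GRCh38.p14. Genes passing filterByExpr with a minimum count of 10 were tested with the quasi-likelihood test of edgeR 4.0.16 (R 4.3.3, limma 3.58.1) with TMM factors and Benjamini-Hochberg adjustment, and the code was tested on simulated data. SE is the size of the log2 fold change over the root of F. Alternatives were DESeq2 1.42.0, RLE factors, no filter, at least 10 counts in every library, a replicate block, the adjusted p alone, glmTreat, 1 fit of the 4 groups of a line, and leaving out each library. Ranges of the adjusted p over all alternatives include glmTreat, which tests for a fold beyond the threshold. The values in such a range therefore do not all test the same hypothesis. The direction of each gene list's median was the same under TMM, RLE and DESeq2 size factors. Figures used Python 3.11.15 and matplotlib 3.10.9.

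Genes were named by a rule: among altered genes whose log2 CPM averaged 1 or more and whose groups were fully apart, the 15 highest and 15 lowest protein-coding genes, the 5 highest and 5 lowest of other types and the 5 largest gains and losses in CPM; members of the lists; the 5 highest and lowest of each interaction; and genes altered with opposite sign in FaDu. Some genes that the rule or the lists hold are not reported here. The members and lists were chosen with earlier results of these data known. Whether libraries of the same number belong together is not given in the labels: after removal of group means they correlated at 0.153 to 0.268 in the comparison of SAS HT+RT with RT (3 of 3 pairs above 0.1), 0.026 to 0.182 in SAS HT with control (1 of 3), 0.029 to 0.271 in the SAS interaction (15 of 18) and 0.157 to 0.413 in FaDu (3 of 3), and the replicate block takes this up. In the interaction of line and heat, libraries of the same number and line correlated at 0.09 to 0.345 (4 of 6). Between libraries of 1 group the differences exceeded counting noise: chi-square values averaged 6.43 to 9.81 per gene in SAS RT and 4.88 to 8.89 in SAS HT+RT, 3.74 to 16.2 in FaDu RT and 3.74 to 20.4 in FaDu HT+RT.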

Additional observations from a re-analysis of the deposited data

Results flagged for a closer look

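The results here came from a test of a difference between groups. In SAS, the heat effect on DUSP2 differed with irradiation by -1.25 on the log2 scale. All other values are the log2 interaction of line and heat in irradiated spheroids (SAS minus FaDu), and the doses of the lines differed. Heat effects were higher in SAS for CRYAB (7.70), SESN3 (6.97), RFPL2 (6.82), FAM83C (6.59), FOXL1 (6.51), AC093591.3 (5.84), HSPE1-MOB4 (5.79), AC139100.2 (5.05), COL2A1 (4.89), AC021739.2 (4.80), PNLDC1 (4.53), AL353796.1 (3.93), TNFSF14 (3.84), NHLH1 (3.20), PPP1R3C (2.59) and HSPB8 (2.52). Those of genes with few or 0 counts in the SAS RT libraries, such as CRYAB, SESN3, RFPL2, COL2A1 and PNLDC1, depend on the prior count of the fit. Heat effects were lower in SAS for IFIT2 (-1.27), IL1A (-1.45), HCAR2 (-1.71), ANKRD10-IT1 (-1.93), HCAR3 (-2.11), DUSP2 (-2.20), IER3 (-2.26), HSPA6 (-2.27), RPSAP52 (-2.67), ARC (-3.65), ADAMTS1 (-4.08), KCNF1 (-4.17), HSPA7 (-4.54), EGR3 (-4.60), EGR4 (-5.84) and AC037198.2 (-7.51). HSPA7 and AC037198.2 each had 2 counts over the FaDu RT libraries, so their values depend on the prior count too. In the list of EGR, ARC and other immediate early genes 13 of 25 members tested were lower in SAS and 1 was higher, and in the list of chemokines and cytokines 5 of 20 were lower and 1 was higher, against 1.34% lower and 2.02% higher of all genes tested.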

How the results depend on the processing

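No called gene named here changed sign under any alternative run, whereas 86 of 404 listed genes not called in SAS HT+RT against RT did. Called genes were selected for a log2 fold change above 1 or below -1, so this contrast follows in part from the call itself. The balance of calls depended on the condition on the fold change: by the adjusted p alone, 1490 genes were upward and 1574 downward in FaDu HT+RT against RT, where 757 and 100 were altered. The median of all genes in the interaction of line and heat, 0.024, was -0.005 with DESeq2, -0.006 with RLE factors, -0.011 with no filter, -0.026 with at least 10 counts in every library, and -0.023, -0.017 and -0.022 without FaDu RT replicates 1, 2 and 3. Of SAS HT+RT against RT, 999 genes were altered. The count was 939 with DESeq2, 999 with RLE factors, 1450 with no filter, 1040 with the replicate block (997 of them shared) and 1136 in 1 fit of the 4 groups. It moved to 584 with at least 10 counts in every library, where fewer genes were tested, to 4208 with the adjusted p alone, which drops the condition on the fold change, and to 423 with glmTreat, which tests for a fold beyond that condition. The same 3 alternatives moved SAS HT against control from 904 to 512, 3540 and 393, FaDu HT+RT against RT from 857 to 461, 3064 and 349, and the interaction of line and heat from 583 to 336, 1318 and 129. With no filter the FaDu count was 1385, where more genes were tested. With the replicate block the counts were 915 for SAS HT against control, 940 for FaDu and 729 for the interaction of line and heat. Of the 729, 576 were shared with the main fit. The interaction of heat and irradiation in SAS, 1 gene, gave 3 with DESeq2, 9 with no filter, 5 with the replicate block and 0 with glmTreat (42 at an unadjusted p under 0.05), and for the DESeq2 and block counts the cause was not tested. Leaving out 1 library at a time gave 959 to 1085 genes for SAS HT+RT against RT, 815 to 939 for SAS HT against control, 0 to 2 for the SAS interaction, 627 to 1050 for FaDu and 479 to 619 for the interaction of line and heat. Of 115 named or listed genes called in SAS HT+RT against RT, DESeq2 did not call 4 (AL353796.1, BIRC3, KCNF1 and SMAD6) and glmTreat 38, and each library left out lost 2 to 8. With at least 10 counts in every library, 83 of them were tested and all were called. Of the 404 listed genes not called, each library left out added 1 to 5 calls, among them EGR4 and EREG. Depth limits genes with few counts in RT: 441 of the 864 genes altered upward had under 1 CPM there, so their folds rest on few reads, and for 17 with 0 counts in RT the fold is a bound.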
